A study of Brassica napus with 12 samples.

Results

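The genes described here lie on the first part of chromosome C09 of oilseed rape (Brassica napus), from BnaC09g00020D to BnaC09g28310D in the order of the deposited identifiers. They number 1324 of the 52962 genes counted. They were chosen on measured values: in an earlier look at the same libraries, stretches of this part of C09 stood below the other libraries of the organ in 1 replicate and above them in others. The levels per replicate are therefore a description without a test. Later C09 identifiers, 1349 genes, serve as the comparison. Of the 1324 members, 900 reached a mean of at least 1 CPM (the unit to which each library's gene counts were scaled for depth) in both organs. Another 132 did so in roots only and 67 in leaves only, 151 had reads but stayed below 1 CPM on average in both organs, and 74 had no read in any library.

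RNA was sequenced from roots and leaves of wild-type Citizzen plants kept hydroponically in a greenhouse. For 1 week from the emergence of leaf 4, the Si plants received 1.7 mM silicon as sodium metasilicate and the no-Si plants 3.4 mM NaCl, which matched the sodium and added chloride. The 4 groups (roots without Si, roots with Si, leaves without Si, leaves with Si) had 3 libraries each. The leaf samples are titled mature leaf and tagged aerial. The labels give a planting date of 12 February for every no-Si library and for Si replicate 3 in leaves, a planting date of 21 March for the other Si libraries, and a harvest on 28 March for all. The later planting date lies 1 week before harvest, which does not match plants supplied for that week from leaf 4, so the label may not be a sowing date and a fit with it as a term separates libraries by label only. In roots this label and Si supply cannot be told apart. The labels call the replicates biological but do not say how many plants each held, nor that the root and leaf libraries of a number came from the same plants, so p-values measure the spread between these libraries. Neither organ was checked by marker genes, because the identifiers are paired with no gene names, and no role is given to any gene below.

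Brassica napus is an allotetraploid. It carries an A subgenome related to that of Brassica rapa and a C subgenome related to that of Brassica oleracea, so that many genes are present as an A copy and a C copy, called homoeologues. C09 shares most of its ancestry with A09 and A10. Pairing between homoeologous chromosomes can replace a stretch of one subgenome by the matching stretch of the other, and such homoeologous exchanges are known to vary between and within cultivars of this species. Poly(A) RNA counts, as used here, measure transcripts and not the number of gene copies, and in bulk tissue fewer cells of a type and less RNA per cell cannot be told apart.

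The counts assigned to genes ran from 14429867 to 21792206 per library. The library with the lowest total, no-Si replicate 2 in leaves, also had the highest share of unmapped reads, 15.6% against 5.36% to 6.23% in the other leaf libraries. In roots that share was 7.04% in no-Si replicate 2 and ran from 6.57% to 9.51%. The part of depth and of unmapped reads in the values below was not tested.

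The first part of C09 gave a different share of the gene counts in different replicates, with the same replicates at the ends of the order in roots and in leaves. In roots without Si it supplied 2.29%, 2.05% and 2.68% of the gene counts in replicates 1, 2 and 3. In roots with Si it supplied 2.35%, 2.22% and 2.75%. No-Si replicate 2 was the lowest of the 6 root libraries, and the replicates numbered 3 were the highest in both treatments. In leaves without Si the shares were 2.48%, 2.10% and 2.68%, and with Si 2.45%, 2.46% and 2.87%. The same replicates stood at the ends in leaves: no-Si replicate 2 was lowest and Si replicate 3 highest. The counting error of each share was small, as in roots of no-Si replicate 2, where the 95% Clopper-Pearson interval ran from 2.04% to 2.06%. Such intervals cover counting error only. The later part of C09, with about as many genes, supplied 2.55% to 2.65% in roots and 2.34% to 2.49% in leaves. As group means, the first part supplied 2.34% ± 0.316 (SD, n = 3) of the root counts without Si and 2.44% ± 0.275 with Si, and 2.42% ± 0.296 and 2.60% ± 0.239 of the leaf counts. The groups overlapped in both organs.

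Gene by gene, each library was set against the median of the other 5 libraries of its organ on the scale of log2 CPM, and the median over the 900 members expressed in both organs is called the level of the library. No-Si replicate 2 had the lowest level, −0.23 in roots and −0.29 in leaves. Si replicate 3 had the highest, 0.24 in roots and 0.21 in leaves. No-Si replicate 3 was also above 0, at 0.19 and 0.16. The 3 libraries thus stood apart in the same direction in both organs. Si replicate 2 was lower by less, at −0.14 in roots and −0.08 in leaves. No-Si replicate 1 (−0.01 and −0.03) and Si replicate 1 (−0.03 in both organs) were near 0. Each reference holds shifted libraries, which can move small levels such as that of Si replicate 2, whereas differences taken directly between libraries do not depend on it. Over the 923 expressed genes of the later part, the 6 root libraries lay between −0.02 and 0.02 and the 6 leaf libraries between −0.03 and 0.02.

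**Figure D1:**
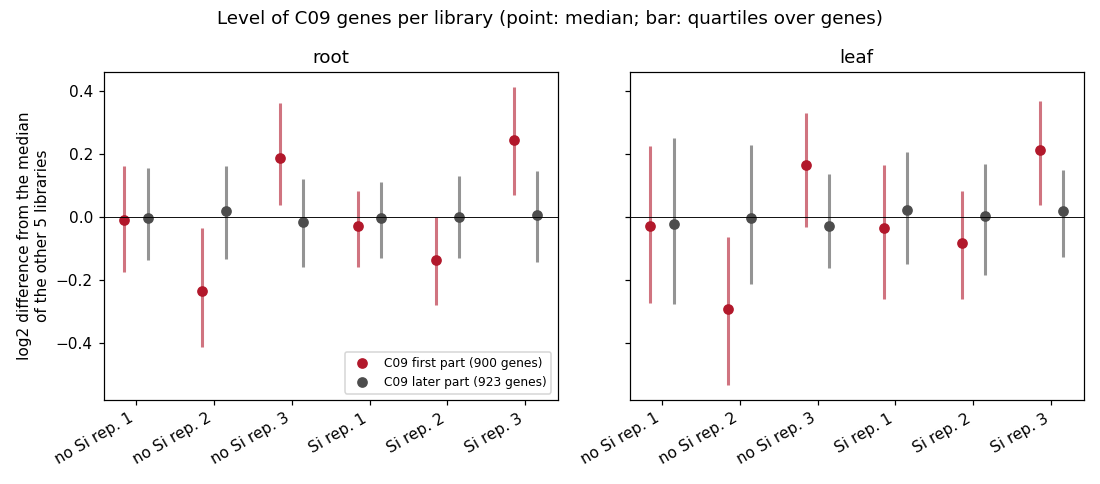
Level of C09 genes in each library, for roots (left) and leaves (right), as the log2 difference from the median of the other 5 libraries of the organ. Points are medians and bars quartiles over genes, for the first part (red, 900 genes) and the later part (grey, 923 genes); the red points run from −0.29 to 0.24 and the grey points from −0.03 to 0.02.

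The span of the first part lay between replicates and not between treatments. With the 3 libraries of a group averaged, the level in roots was −0.02 ± 0.21 (SD, n = 3) without Si and 0.03 ± 0.19 with Si. In leaves it was −0.05 ± 0.23 and 0.03 ± 0.16. The difference between treatments was smaller than the SD within either one. For the later part the SD within a group was at most 0.02.

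Along the chromosome, the shifts ran through nearly the whole first part and ended within it. In successive windows of 25 expressed genes, the median of no-Si replicate 2 was below 0 in 35 of 36 windows in roots and in 35 of 36 in leaves. The median of Si replicate 3 was above 0 in 35 of 36 windows in each organ, and that of no-Si replicate 3 in 32 of 36 in each. Si replicate 2 was below 0 in 32 windows in roots and 31 in leaves. By contrast, no-Si replicate 1 was below 0 in 24 and 20 of the 36 windows, and Si replicate 1 in 25 and 23. With a difference of at least 0.12 required in both organs, no-Si replicate 2 was low in 29 windows, Si replicate 3 high in 31, no-Si replicate 3 high in 22 and Si replicate 2 low in 12. In the later part, the same count was 1 of 36 windows for no-Si replicate 2, 1 for no-Si replicate 3, 2 for Si replicate 3 and 1 for Si replicate 2.

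**Figure D2:**
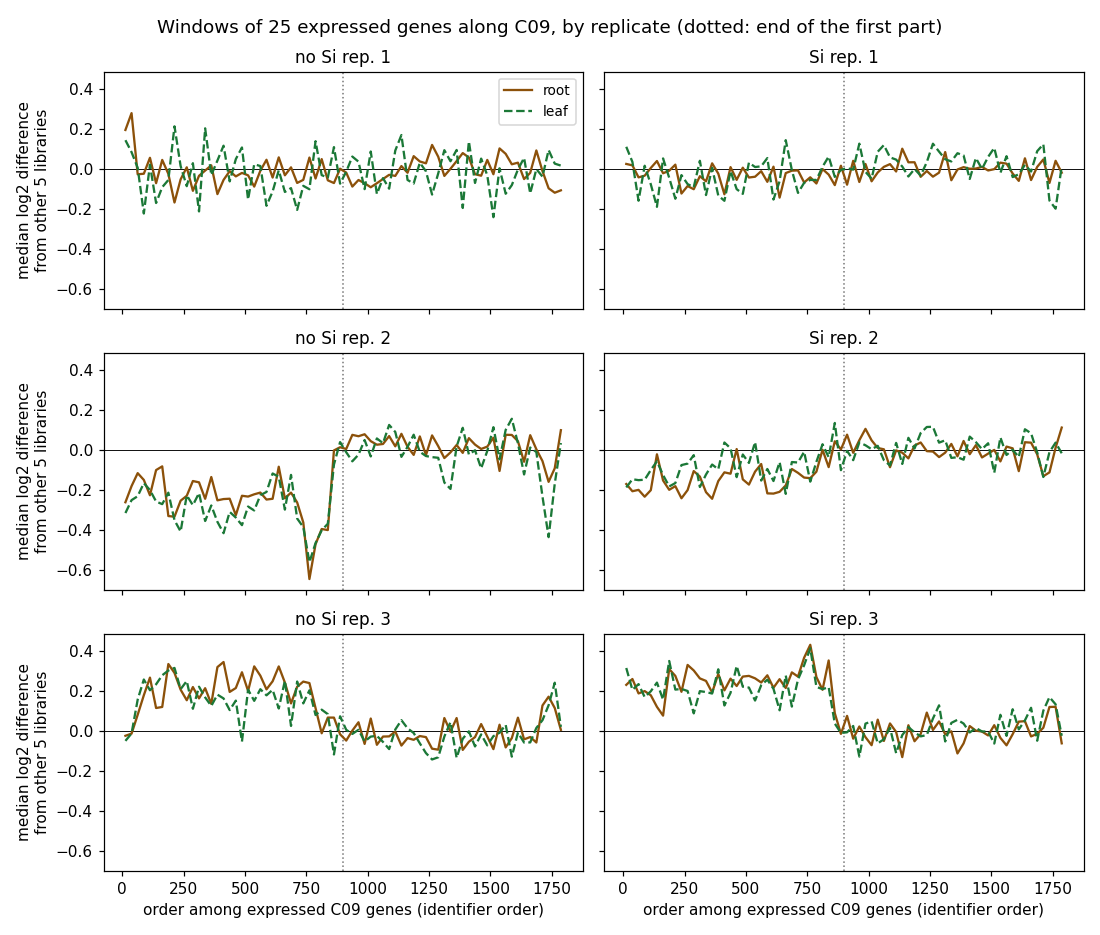
Median log2 difference from the other 5 libraries of the organ in windows of 25 expressed genes along C09, for roots (brown, solid) and leaves (green, dashed), with 1 panel per replicate; the x axis is the order of expressed genes and not a distance. In no-Si replicate 2, no-Si replicate 3, Si replicate 2 and Si replicate 3 the curves leave 0 in the first part and return to it before the dotted line, after gene 900; the lowest window is at −0.65 in roots of no-Si replicate 2.

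The profile was stepped, and the steps differed between replicates. The 36 windows were divided into 5 segments after their values were seen, so the segments are a description. In segment 1, 50 expressed genes from BnaC09g00020D to BnaC09g01310D, no-Si replicate 1 was high (0.22 in roots and 0.13 in leaves) while no-Si replicate 3 was near 0 (−0.02 and −0.03). In segment 2, 700 expressed genes from BnaC09g01320D to BnaC09g22760D, these positions were exchanged. No-Si replicate 1 was at −0.03 and −0.04 there, and no-Si replicate 3 at 0.23 and 0.19. Segment edges are edges of windows, so no step was placed at a single gene. Across the boundary between segments 1 and 2 the other shifted replicates kept their side of 0. No-Si replicate 2 was at −0.26 and −0.31 before it and at −0.23 and −0.28 after it, in roots and leaves. Si replicate 3 was at 0.24 and 0.27 before it and at 0.24 and 0.21 after it. Si replicate 2 was at −0.19 and −0.18 before it and at −0.16 and −0.09 after it.

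Segment 3, 50 genes from BnaC09g22810D to BnaC09g24050D, held the deepest shift. No-Si replicate 2 was at −0.51 in both organs there, and Si replicate 3 at 0.39 in roots and 0.31 in leaves. The lowest and the highest window of the whole first part were the same one, BnaC09g22810D to BnaC09g23500D, with −0.65 and −0.56 in no-Si replicate 2 and 0.43 and 0.42 in Si replicate 3. In segment 4, 50 genes from BnaC09g24130D to BnaC09g26020D, only 2 replicates remained apart in both organs: no-Si replicate 2 at −0.40 and −0.37, and Si replicate 3 at 0.31 and 0.22. No-Si replicate 3 was at 0.05 and 0.09 there, and Si replicate 2 at −0.05 and 0.02. In segment 5, 50 genes from BnaC09g26030D to BnaC09g28310D, every library was between −0.05 and 0.04. The shifts thus ended near BnaC09g26020D, before the last identifier of the members. Without segment 5, over 850 genes, the level of no-Si replicate 2 was −0.24 in roots and −0.31 in leaves and that of Si replicate 3 was 0.25 and 0.22.

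**Figure D3:**
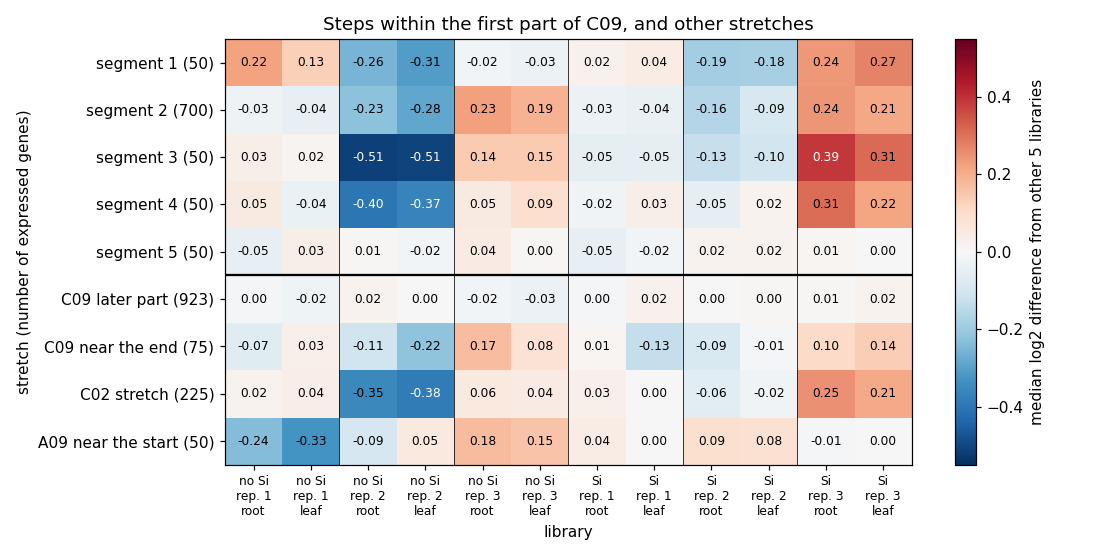
Median log2 difference from the other 5 libraries of the organ for the 5 segments of the first part of C09 (above the line) and for comparison stretches (below it), with 1 column per library and the number of expressed genes in brackets. The colour runs from blue (low) to red (high); segment 3 holds the lowest value, −0.51, and segment 5 stays between −0.05 and 0.04.

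At the end of the range, the expressed genes on either side were alike. The last 3 expressed members, BnaC09g28290D, BnaC09g28300D and BnaC09g28310D, had differences from −0.58 to 0.55, from −0.18 to 0.32 and from −0.30 to 0.27 over the 12 libraries. The next 3 expressed genes, BnaC09g28330D, BnaC09g28380D and BnaC09g28410D, had differences from −0.23 to 0.33, from −0.55 to 0.60 and from −0.13 to 0.45. Single genes vary too much to show a step of the size seen on C09. Over the 12 libraries, the last window of 25 expressed members, BnaC09g27340D to BnaC09g28310D, had medians from −0.10 to 0.08. The next window, BnaC09g28330D to BnaC09g29640D, had medians from −0.08 to 0.08. No step was seen between these 2 windows. The order of the identifiers was also set against an assembled genome of another cultivar: 72 members equalled a symbol in RefSeq's gene list for the Da-Ae assembly, 66 of them on C9, 5 on A9 and 1 on C3. Of the 65 successive pairs among the 66, 63 were in rising order on that chromosome. Over the 51 of the 66 that were expressed in both organs, the level was −0.24 in roots and −0.29 in leaves for no-Si replicate 2, and 0.25 and 0.22 for Si replicate 3.

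The shift was spread over most of the expressed genes and was not carried by a few. The direct difference between no-Si replicate 3 and no-Si replicate 2, a pair with the same treatment and labelled planting date, had a median of 0.37 in roots (quartiles 0.13 and 0.59), a 1.29-fold difference. In leaves it was 0.38 (0.14 and 0.61), or 1.30-fold. The value was higher in no-Si replicate 3 for 755 of 900 members (83.9%) in roots and 753 (83.7%) in leaves, and for 664 (73.8%) in both organs, while 56 were lower in both. Over the later part the medians were −0.03 and −0.02, with 246 of 923 genes (26.7%) higher in both organs and 322 lower in both. Between Si replicate 3 and Si replicate 2 the median over the members was 0.34 in roots and 0.23 in leaves, and 626 of 900 (69.6%) were higher in Si replicate 3 in both organs. The replicates numbered 3 differed by less from each other: Si minus no Si gave 0.04 and 0.06. The replicates numbered 1 differed by 0.01 in roots and 0.02 in leaves. Across the 900 members, the difference between no-Si replicates 3 and 2 in roots and in leaves had a Pearson r of 0.37. The r was 0.34 over the 923 later genes and 0.50 over all 34557 expressed genes outside the first part. By ranks (Spearman) the values were 0.32, 0.32 and 0.28 for the same sets, so the order of the sets depends on the measure. These are values across genes of shared libraries, and genes are not independent replicates.

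**Figure D4:**
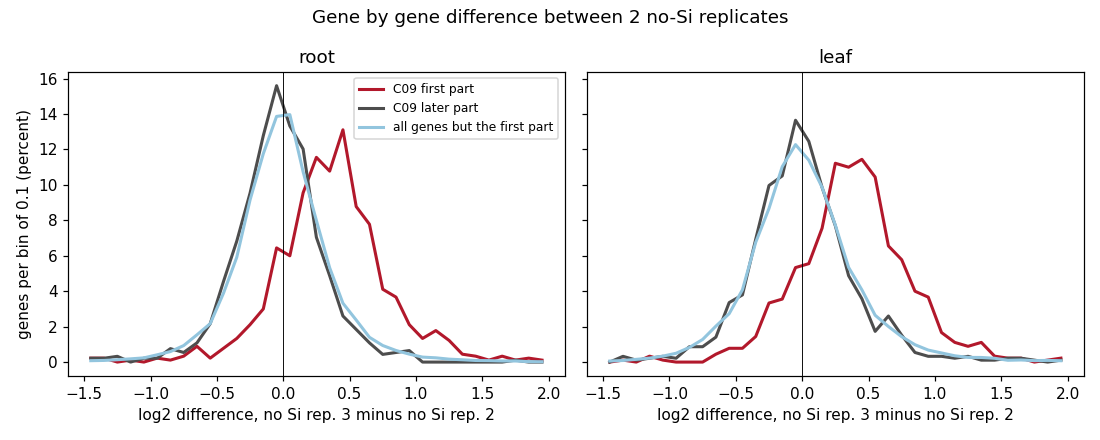
Distribution over genes of the log2 difference between no-Si replicate 3 and no-Si replicate 2 in roots (left) and leaves (right), as percent of genes per bin of 0.1, for the first part of C09 (red), its later part (grey) and all genes but the first part (blue). The red curve is displaced to the right, with medians of 0.37 and 0.38, whereas the grey curve has medians of −0.03 and −0.02; fewer than 1% of each set lies outside the range drawn.

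The lowest and the highest of the 6 libraries of an organ were often the same replicates over the members. No-Si replicate 2 was the lowest library for 422 of 900 members in roots (46.9%) and 420 in leaves (46.7%), and for 250 (27.8%) in both organs at once. In the later part it was lowest in both organs for 46 of 923 genes (4.98%). Si replicate 3 was the highest library for 380 members in roots (42.2%), 327 in leaves (36.3%) and 183 (20.3%) in both organs, against 41 of the later genes (4.44%). The spread between libraries was accordingly wider: the median SD of log2 CPM over the 6 root libraries was 0.25 for the members and 0.16 for the later part. In leaves it was 0.28 and 0.22.

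The shift of no-Si replicate 2 was of similar size in members that differ in other ways. With the 900 genes ranked by mean CPM and divided into 3 equal classes, the level of no-Si replicate 2 in roots was −0.25, −0.24 and −0.21 from the lowest to the highest class, and in leaves −0.27, −0.33 and −0.28. In the 206 of the 900 that were called higher in roots in both treatments, it was −0.20 in roots and −0.25 in leaves. In the 269 of the 900 called higher in leaves it was −0.21 and −0.27. Si replicate 2 was less even. From the lowest to the highest class by mean CPM it was at −0.03, −0.09 and −0.12 in leaves, but at −0.14 in each class in roots. In roots it was at −0.20 in the members higher in roots and at −0.11 in those higher in leaves. The members expressed in 1 organ only did not enter the levels above. The 132 roots-only genes had a median of −0.18 in no-Si replicate 2, 0.16 in no-Si replicate 3 and 0.18 in Si replicate 3 in roots. The 67 leaves-only genes had −0.36, 0.23 and 0.13 in leaves.

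Individual members showed the extremes of this pattern. BnaC09g15730D had 2.59, 0.253 and 3.14 CPM in roots of no-Si replicates 1, 2 and 3, and 2.79, 3.12 and 7.25 CPM with Si. In leaves it had 1.47, 0 and 1.99 CPM without Si and 3.29, 1.55 and 3.84 CPM with Si. No-Si replicate 2 was thus the lowest of all libraries in each organ, with 4 reads in roots and none in leaves. BnaC09g23550D, in segment 3, had 8.15, 1.90 and 14.9 CPM in roots without Si and 10.2, 8.64 and 13.5 CPM with Si. Its leaf values were 12.8, 1.73 and 7.57 CPM without Si and 6.29, 7.27 and 11.3 CPM with Si. The no-Si replicate 2 libraries were apart from all others, and the difference between no-Si replicates 3 and 2 was 2.89 in roots and 2.06 in leaves on the log2 scale. In the opposite direction, BnaC09g13630D had 2.72 CPM in roots of no-Si replicate 2 and 0.961 CPM in replicate 3, and 1.73 and 0.537 CPM in leaves. BnaC09g20600D had 1.58 and 0.896 CPM in roots and 1.80 and 0.698 CPM in leaves of the same replicates. Both genes are expressed near the 1 CPM minimum.

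Members that met a rule for on and off between replicates were rare. The rule covered 854 members with a highest value of at least 2 CPM in roots and also in leaves. Among them BnaC09g06670D alone was off in some replicates and on in others in the same way in both organs. Off means below 1/30 and on above 1/6 of the gene's highest value in the organ. BnaC09g06670D had no read in no-Si replicate 2 in either organ. A count of 0 allows up to 0.190 CPM in the root library and 0.208 CPM in the leaf library (3 counts). Both limits lie above 1/30 of the gene's highest value in the organ, so complete loss of the transcript is not established. The other root libraries had 0.881 and 0.896 CPM without Si and 1.09, 0.390 and 2.28 CPM with Si, and the other leaf libraries 2.02 and 2.20 CPM without Si and 1.73, 2.35 and 3.98 CPM with Si. Its value of 0.390 CPM in roots, from 7 reads, passed the limit for on narrowly. BnaC09g15730D missed the rule narrowly, with 0.253 CPM in roots of no-Si replicate 2 and a highest root value of 7.25 CPM. Over all genes of the series, 66 of 33473 eligible genes met the same rule, and in the later part 0 of 872.

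A comparable combination of shifted replicates was found in few other places. No-Si replicate 2 was low and Si replicate 3 high, each by at least 0.12 in both organs, in 28 of 36 windows of the first part and in 11 of 1371 windows elsewhere. With no-Si replicate 3 high as well, the counts were 20 and 2. Of the 11 windows elsewhere, 7 were on C02, 3 among C genes without a chromosome (Cnn) and 1 on C09 itself. Several were far deeper than any window of C09. The C02 window from BnaC02g42370D to BnaC02g42990D had no-Si replicate 2 at −4.31 in roots and −4.46 in leaves, and also Si replicate 1 at −0.51 and −0.68. Adjacent Cnn windows had no-Si replicate 2 at −1.73 and −2.15 (BnaCnng01590D to BnaCnng02160D) and at −1.03 and −1.31 (BnaCnng02170D to BnaCnng02630D). A shift of the size seen on C09 was found over the C02 stretch from BnaC02g06330D to BnaC02g13350D, 225 expressed genes delimited after their values were seen: no-Si replicate 2 was at −0.35 in roots and −0.38 in leaves and Si replicate 3 at 0.25 and 0.21, with the other replicates between −0.06 and 0.06. These values are near those of segment 4 of C09. The window near the end of C09, BnaC09g51290D to BnaC09g52270D, had no-Si replicate 2 at −0.16 in roots and −0.44 in leaves, while the replicates numbered 3 were above 0, at 0.17 and 0.13 without Si and at 0.12 and 0.17 with Si. The later part of C09 was therefore not free of such values.

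The chromosomes with shared ancestry showed no displacement as wholes. The levels over the expressed A09 genes lay between −0.03 and 0.02 in both organs. Those over A10 lay between −0.04 and 0.02. Near the start of A09, 50 expressed genes from BnaA09g00530D to BnaA09g01570D, delimited after their values were seen, stood apart. No-Si replicate 1 was at −0.24 in roots and −0.33 in leaves there, and no-Si replicate 3 at 0.18 and 0.15. These 2 replicates are those that exchanged positions at the start of C09, where no-Si replicate 1 was high and no-Si replicate 3 near 0. Other A09 windows departed as well. From BnaA09g14490D to BnaA09g15240D, no-Si replicate 2 was at 0.25 in roots and 0.21 in leaves. Si replicate 3 was at −0.24 and −0.12 in that window. From BnaA09g04500D to BnaA09g05080D, no-Si replicate 1 was at 0.43 in roots and 0.21 in leaves. No test relates the A09 genes to the C09 genes, since no table here pairs homoeologues.

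Si supply changed no member in roots by edgeR's quasi-likelihood test at an adjusted p under 0.05. Of the 1324 members, 1087 passed the filter on low counts, and 0 were called, with a background of 0.00235% of all genes tested. At an unadjusted p under 0.05, 19 members were higher and 50 lower with Si, 1.75% and 4.60%, where the background was 3.52% and 5.34%. The median log2 fold change over the members was 0.03, and 614 of 1087 (56.5%) were above 0, against 50.8% of all genes. This median followed single libraries: it was −0.05 without no-Si replicate 2, and −0.06 or 0.13 when Si replicate 3 or no-Si replicate 3, respectively, was left out. The counts at an unadjusted p under 0.05 also moved with single libraries, and so did the shares over all genes. Higher with Si were 6 members (0.548%, all genes 2.23%) when no-Si replicate 2 was left out, and 7 (0.640%, all genes 3.17%) when Si replicate 3 was. They were 11 (1.01%, all genes 1.91%) when Si replicate 2 was left out, and 100 (9.15%, all genes 5.31%) when no-Si replicate 3 was. Lower with Si were 28 (2.56%, all genes 3.13%) when Si replicate 2 was left out. Without no-Si replicate 3, edgeR called 1 member, BnaC09g13360D, at an adjusted p of 0.0346, which is 0.0915% of the 1093 members tested against 0.0837% of all genes in that fit. Its root values were 5.84, 5.63 and 15.2 CPM without Si and 15.1, 16.9 and 20.3 CPM with Si.

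The members with the smallest p in roots were lower with Si. BnaC09g24040D, in segment 3, had 234, 229 and 217 CPM without Si and 134, 114 and 142 CPM with Si. The groups did not overlap; the log2 fold change was −0.83 ± 0.12 (SE), with an adjusted p of 0.118 by edgeR. BnaC09g10980D had 25.7, 24.7 and 38.5 CPM without Si and 13.0, 12.7 and 8.57 CPM with Si. All Si libraries were below all no-Si libraries, with a log2 fold change of −1.40 ± 0.21 and an adjusted p of 0.140 by edgeR. Among members with higher values with Si, BnaC09g12090D had 34.6, 39.4 and 41.2 CPM without Si and 44.0, 58.5 and 67.5 CPM with Si, a log2 fold change of 0.54 ± 0.15 with an edgeR adjusted p of 0.350. BnaC09g18300D had 8.81, 13.0 and 8.84 CPM without Si and 12.9, 26.5 and 22.0 CPM with Si. Its groups overlapped, and the log2 fold change was 0.98 ± 0.27 with an edgeR adjusted p of 0.359.

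DESeq2, the alternative test, called 9 of the 1087 members in roots, 8 lower and 1 higher with Si, with a background of 1.06%. BnaC09g10980D had an adjusted p of 6.82e-07 by DESeq2 and BnaC09g24040D one of 8.35e-07. The others called lower were BnaC09g08120D, BnaC09g04540D, BnaC09g18390D, BnaC09g13960D, BnaC09g24050D and BnaC09g08180D, with log2 fold changes from −1.23 (BnaC09g04540D) to −0.47 (BnaC09g24050D), and BnaC09g18300D was called higher. BnaC09g24040D and BnaC09g24050D have neighbouring identifiers.

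In leaves, Si supply changed no member by edgeR either. Of 1038 members tested, 0 were called at an adjusted p under 0.05, with a background of 0.00731%. At an unadjusted p under 0.05, 16 were higher and 16 lower with Si (1.54% each), with a background of 1.38% higher and 2.71% lower. The median log2 fold change was 0.05, and 617 of 1038 (59.4%) were above 0, against 49.3% of all genes. It was −0.03 without no-Si replicate 2, and −0.02 or 0.13 when Si replicate 3 or no-Si replicate 3, respectively, was left out. With the labelled planting date as a term it was 0.19. In that fit the Si difference rests on Si replicate 3, the only Si leaf library with the date of the no-Si libraries. That library also had the highest level of the members in leaves. At an unadjusted p under 0.05, 29 members were higher (2.77%, all genes 2.17%) when no-Si replicate 1 was left out, and 7 (0.662%, all genes 2.21%) when no-Si replicate 2 was. They were 30 (2.84%, all genes 1.20%) when no-Si replicate 3 was left out, and 3 (0.288%, all genes 0.888%) when Si replicate 3 was. Lower were 40 members (3.78%, all genes 4.78%) when no-Si replicate 2 was left out, and 8 (0.758%, all genes 2.01%) when no-Si replicate 3 was. They were 8 (0.766%, all genes 1.96%) when Si replicate 2 was left out.

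BnaC09g10980D, one of the genes with the smallest p in roots, also had the smallest p among leaf members lower with Si. It had 123, 116 and 209 CPM in leaves without Si and 61.3, 37.8 and 62.5 CPM with Si. The groups did not overlap, and the log2 fold change was −1.51 ± 0.30 with an edgeR adjusted p of 1.00. DESeq2 gave it an adjusted p of 0.00133, its only call among the members in leaves, with a background of 0.105%. BnaC09g01970D had 3.07, 2.29 and 1.99 CPM without Si and 1.15, 0.610 and 1.23 CPM with Si, and almost no reads in roots. Its log2 fold change was −1.34 ± 0.34 with an edgeR adjusted p of 1.00. With higher values, BnaC09g23280D had 65.2, 74.3 and 117 CPM without Si and 156, 149 and 140 CPM with Si. BnaC09g22320D had 2.20, 1.32 and 1.02 CPM without Si and 2.54, 2.96 and 3.64 CPM with Si. Neither gene's groups overlapped, and both had an edgeR adjusted p of 1.00.

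**Figure D5:**
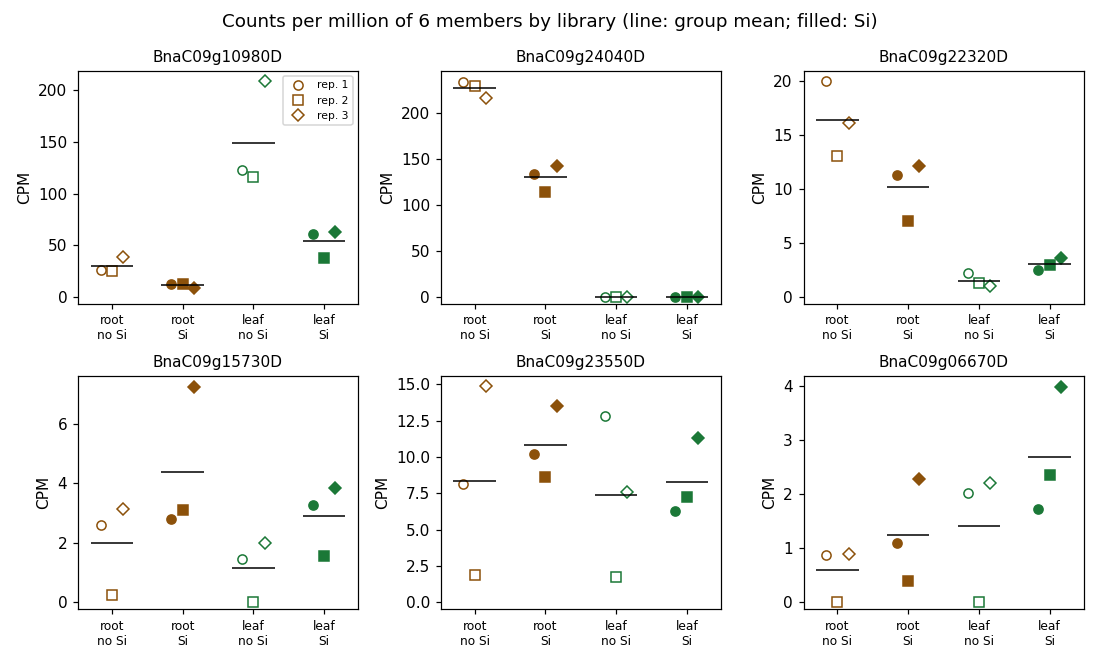
CPM of 6 members in every library by group, with replicates 1, 2 and 3 as circle, square and diamond, open without Si and filled with Si; brown is root, green is leaf, and the line is the group mean. BnaC09g10980D is lower with Si in both organs, BnaC09g24040D is at 217 to 234 CPM in roots without Si and 114 to 142 CPM with Si, and BnaC09g15730D, BnaC09g23550D and BnaC09g06670D are lowest in no-Si replicate 2 in both organs.

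The organ contrast, which the choice of members did not use, divided the members much as it divided all genes. Without Si, edgeR called 332 of 1116 members higher in roots (29.7%) and 347 lower (31.1%), with a background of 31.6% and 31.8%. With Si, it called 378 of 1126 higher (33.6%) and 396 lower (35.2%), with a background of 35.8% and 35.4%. In the later part the shares were 31.2% and 33.1% without Si and 34.8% and 36.8% with Si. Of 1110 members tested in both treatments, 310 were called higher in roots in both, 330 lower in both and 0 in opposite directions. The matching shares over all genes were not computed, so these joint counts are a description only.

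Several members were close to organ-specific. BnaC09g24040D, lower with Si in roots above, had 1, 1 and 2 reads in the leaf libraries without Si, at most 0.107 CPM. Its edgeR adjusted p for root against leaf without Si was 2.65e-07. BnaC09g07300D had 37.0, 33.0 and 39.6 CPM in roots without Si and at most 1 read in a leaf library of that treatment (edgeR adjusted p 3.56e-07). Both genes had their transcripts almost wholly in roots. In the other direction, BnaC09g21500D had 23.3, 23.4 and 26.9 CPM in leaves without Si and 4, 2 and 1 reads in roots, with an edgeR adjusted p of 3.12e-07. BnaC09g25870D had 42.8, 25.6 and 36.7 CPM in leaves and 4, 3 and 3 reads in roots, with an edgeR adjusted p of 2.92e-07. For BnaC09g25870D the sense counts are uncertain, since 57.6% of its reads over all libraries were on the opposite strand.

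With Si, BnaC09g02940D had 117, 110 and 141 CPM in roots and 2.02, 2.02 and 2.36 CPM in leaves, a log2 difference of 5.13 ± 0.16 (SE; edgeR adjusted p 2.08e-09). BnaC09g09270D had 83.7, 74.5 and 84.6 CPM in roots and 2.19, 2.35 and 2.41 CPM in leaves, a log2 difference of 4.41 ± 0.13 (edgeR adjusted p 1.78e-09). Without Si, both were lowest in roots in no-Si replicate 2, at 91.4 and 58.4 CPM, and highest in no-Si replicate 3, at 152 and 90.4 CPM. BnaC09g07320D had 101, 127 and 121 CPM in leaves with Si and 1 or 2 reads per root library, with an edgeR adjusted p of 1.30e-09. BnaC09g06210D had 69.5, 84.3 and 89.5 CPM in leaves with Si and 1 to 3 reads per root library, with the same adjusted p. In leaves without Si these genes were again lowest in no-Si replicate 2, at 78.0 and 55.2 CPM. Of the 8 genes named for the organ contrasts, 6 were lowest in no-Si replicate 2 among the no-Si libraries of the organ where they were higher. BnaC09g24040D was lowest in replicate 3 and BnaC09g21500D in replicate 1. The members were chosen on shifts of replicates such as no-Si replicate 2, and the matching share over all genes was not computed. The count is therefore a description only.

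Reads on the opposite strand were few over the first part of C09. Of 1127 members with at least 100 reads in all, 7 had more than 50% of them on the opposite strand (0.621%), against 0.646% of all such genes and 0.523% in the later part. BnaC09g24120D had 135 opposite-strand reads and 1 sense read, BnaC09g18150D 123 and 4, and BnaC09g03550D 153 and 7. BnaC09g19310D had 1088 opposite-strand and 118 sense reads in leaves (90.2% opposite), but 941 and 1179 in roots (44.4%). For these genes the reverse column need not count the annotated transcript.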

How the data were processed

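Per the labels' protocols, the paired-end libraries were stranded and came from poly(A) RNA (TruSeq). The authors deposited whole-number counts per gene for each library, in columns for either strand, forward and reverse; the reverse column was used as the sense count. Unmapped, multimapping (7.73% to 9.66% of a library), gene-external (7.26% to 15.1%) and ambiguous reads (0.0777% to 0.113%) have lines of their own, per the file headers, and entered no total. A read that an A copy and its C copy share may thus be missing from a gene or given to the wrong copy. The submitters' processing notes name TopHat2 and Bowtie2 without a version. Build, annotation and counter: not given in the sources used here. Samples were grouped by the labels. All replicate pairs differed by more than sampling noise (chi-square divided by its degrees of freedom, 5.55 to 40.6).

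The members and lists, the segments and the comparison stretches were chosen with earlier results of these data known. CPM were computed from the reverse column and its gene total. Levels used log2 CPM with TMM-scaled totals per organ, a prior count of 1 and genes with a mean of at least 1 CPM in both organs. The level code was tested on simulated data: a shift of a single library and the difference between shifted libraries came back, but where several libraries are shifted the levels are somewhat too large in size, and libraries without a shift move slightly the other way, since each reference then holds shifted libraries. Within each organ Si was set against no Si, and within each treatment root against leaf, by edgeR 4.0.16 (R 4.3.3) with filterByExpr, robust quasi-likelihood fits, two-sided tests over all genes and Benjamini-Hochberg adjustment at 0.05. SE values come from the F statistic. The edgeR fits were also tested on simulated counts. DESeq2 1.42.0, RLE scaling, no low-count filter, the either-strand column, a replicate block, planting date in leaves and leaving out each library were alternatives.

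Genes were named as boundaries, as the up to 2 members with the smallest p in each direction of each comparison, as the 2 with the largest difference in each direction between no-Si replicates 3 and 2, as on and off between replicates, or for the highest opposite-strand share. BnaC09g13360D and the members called by DESeq2 were named after their values were seen. No member matched in the RefSeq table had a synonym there, and none was named for a product. Start positions in that table served only to order the members matched on C9. No sequence was used.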

Additional observations from a re-analysis of the deposited data

Results flagged for a closer look

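BnaC09g22320D, a gene of the second segment near BnaC09g22760D, was lower with Si in all 3 root libraries than in any root library without Si, and higher with Si in all 3 leaf libraries than in any leaf library without Si. In roots it had 20.0, 13.0 and 16.1 CPM without Si and 11.3, 7.02 and 12.2 CPM with Si, so that the means were 16.4 ± 3.48 and 10.2 ± 2.75 CPM (SD, n = 3) and the log2 ratio of the means −0.69. In leaves the means were 1.51 ± 0.615 and 3.04 ± 0.556 CPM. The difference between the organs was not tested. The gene was named for its small p in leaves, and its edgeR adjusted p there was 1.00. Groups of 3 libraries were not searched for outlying values.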

How the results depend on the processing

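The levels of no-Si replicate 2, no-Si replicate 3, Si replicate 3 and, in roots, Si replicate 2 kept their sign under all 11 alternatives: −0.29 to −0.19 in roots and −0.38 to −0.25 in leaves for no-Si replicate 2, 0.21 to 0.28 and 0.18 to 0.26 for Si replicate 3. In leaves, Si replicate 2 ran from −0.13 to 0.01. The difference between no-Si replicates 3 and 2 in roots ran from 0.36 to 0.41. With a mean of at least 5 CPM, 562 members entered. The median log2 fold change with Si lay between −0.06 and 0.13 (roots) or −0.03 and 0.19 (leaves). The 0.19 came from the fit with planting date, which rests on Si replicate 3. The members called for Si were 9 in roots and 1 in leaves with DESeq2, against 0 and 0 with edgeR, and 0 to 1 in roots when single libraries were left out. In the organ contrasts 596 to 702 members were called without Si and 708 to 803 with Si. Over all genes, the same fits called 25316 to 28933 without Si and 29413 to 32738 with Si, with differing numbers tested.

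Same-numbered libraries were not treated as paired: the correlations of their deviations from the group means were 0.059, 0.0788 and 0.186 for Si in roots, −0.0635, −0.136 and 0.298 for Si in leaves, 0.0341, 0.345 and 0.141 between organs without Si, and 0.139, 0.0832 and 0.150 with Si. With the replicate block, 0 members were called for Si in either organ (0 without it). In the organ contrasts 686 and 803 members were called with the block, against 679 and 774 without it. Over all genes the counts were 27445 and 32064 with the block, against 27985 and 31652 without it. With the block, 56 members in roots had an edgeR unadjusted p under 0.05 and higher values with Si (5.15%, all genes 3.97%). Without the block they were 19 (1.75%, all genes 3.52%). Depth limits the rare transcripts: 151 members stayed below 1 CPM and 74 had no read, so no level was computed for them. Some of the 151 passed the low-count filter of the fits, and some are named above for their opposite-strand reads.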
